A study of Mus musculus with 2 samples.

Results

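The genes described here encode splicing factors, heterogeneous nuclear ribonucleoproteins (hnRNPs) and proteins of the small nuclear ribonucleoprotein particles (snRNPs). Members were the genes whose symbol in the platform annotation starts with Hnrnp, Srsf, Sf3a, Sf3b, Snrp, Snrnp, Prpf or U2af, together with Ptbp1, Sfpq and Cdc5l. Only probe sets with 1 gene symbol were used, which gave 65 member genes on 160 probe sets, of 12393 genes on 20380 such probe sets on the array. A further 15 probe sets that name a member together with other genes were not used. The samples were haematopoietic stem cells (HSC) of mouse bone marrow, measured on Affymetrix arrays, with 1 array of primitive HSC and 1 array of maturing HSC. Both populations were untreated and were sorted by flow cytometry after a short culture. The sources used here do not give strain, age, sex or the surface phenotype of each sort. Each array was hybridised with cRNA made from a cloned cDNA library of its population, so it reports the composition of that library after PCR amplification, size fractionation and cloning.

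Introns are removed from pre-mRNA by the spliceosome, which is assembled anew on each intron from the U1, U2, U4, U5 and U6 snRNPs. U1 binds the 5′ splice site, while U2 with its SF3a and SF3b subcomplexes binds the branch point next to U2AF on the 3′ splice site, and the U4/U6.U5 tri-snRNP then joins before the Prp19 complex helps to activate the catalytic core. Each snRNP except U6 carries a ring of Sm proteins, and U6 carries LSm proteins. SR proteins, whose genes are named Srsf, mostly favour the use of nearby splice sites, and many hnRNPs oppose them. In blood cells, mutations of SF3B1, SRSF2 and U2AF1 are recurrent in human myelodysplastic syndromes.

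The deposited values are MAS5 signal intensities on a linear scale. Intensities at or under 441.0, the pooled median of the probe sets that are not controls, were treated as a floor. Each gene was represented by its brightest probe set, and ratios are log2 of primitive over maturing, so that a negative ratio means a higher signal in maturing HSC. A gene with 1 array at the floor gave only a lower limit of the difference, called a bound here. With 1 array per population there was no replicate and no test was possible, so every value below describes this pair of libraries. The nearest available yardstick was the spread between probe sets of the same gene. Its pooled SD on the log2 scale was 0.94 over 30 member genes and 0.82 over 1318 genes of the whole array.

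Splicing genes had higher signals in maturing than in primitive HSC more often than the array as a whole. Of the 65 members, 60 were measured, 50 with both signals above the floor and 10 as bounds. Hnrnph3, Srsf9, Snrpn, Prpf31 and Prpf40b were at the floor on both arrays. For Snrpn this rests on 1 probe set. Left-out probe sets that name Snurf and Snrpn read up to 6343.6 in primitive and 620.8 in maturing HSC. Those naming Snrpd1 (8017.1 and 1703.7) and Snrpd2 (36872.8 and 14821.9) lay on the same side. Those naming Hnrnpa1 (such as 3644.6 and 13340.5) and Snrpa (310.8 and 1304.0) lay on the opposite side, as did most naming Hnrnpa3. Of the 60, 41 had the higher signal in maturing HSC and 19 in primitive HSC, against 47.3% and 52.7% of all 8852 measured genes. The 41 include Sf3a3, whose signals were equal to within 1 unit. The median ratio was -0.54 over the members and 0.07 over all measured genes. At the 4-fold threshold, 9 members (15.0%) were higher in maturing HSC, where 4.69% of all measured genes were. In primitive HSC 0 were higher, where 3.45% of all genes were. Both counts leave out the probe sets that name several genes, so the 0 does not cover them. After quantile normalization the split was 7 to 1 (11.7% of measured members and 4.17% of all genes higher in maturing HSC), and after scaling to the hybridisation controls 18 to 0 (28.1% of measured members and 13.5% of all genes higher in maturing HSC). At 2-fold, 20 members (33.3%) were higher in maturing HSC against 17.6% of all genes, and 3 (5.0%) in primitive HSC against 15.6%. Both signals were above the floor for 5 of the 9, namely Sfpq, Cdc5l, Hnrnph1, Sf3b2 and Hnrnpul1. Bounds made up the remainder, which were Hnrnpul2, Sf3b3, Hnrnpl and Prpf38b. Sfpq and Cdc5l are named singly in the rule and had already stood out in earlier results of these data. Without Ptbp1, Sfpq and Cdc5l the count was 7 of 57 (12.3%). In sorted populations, fewer cells that express a gene and less of its RNA per cell cannot be told apart.

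**Figure D1:**
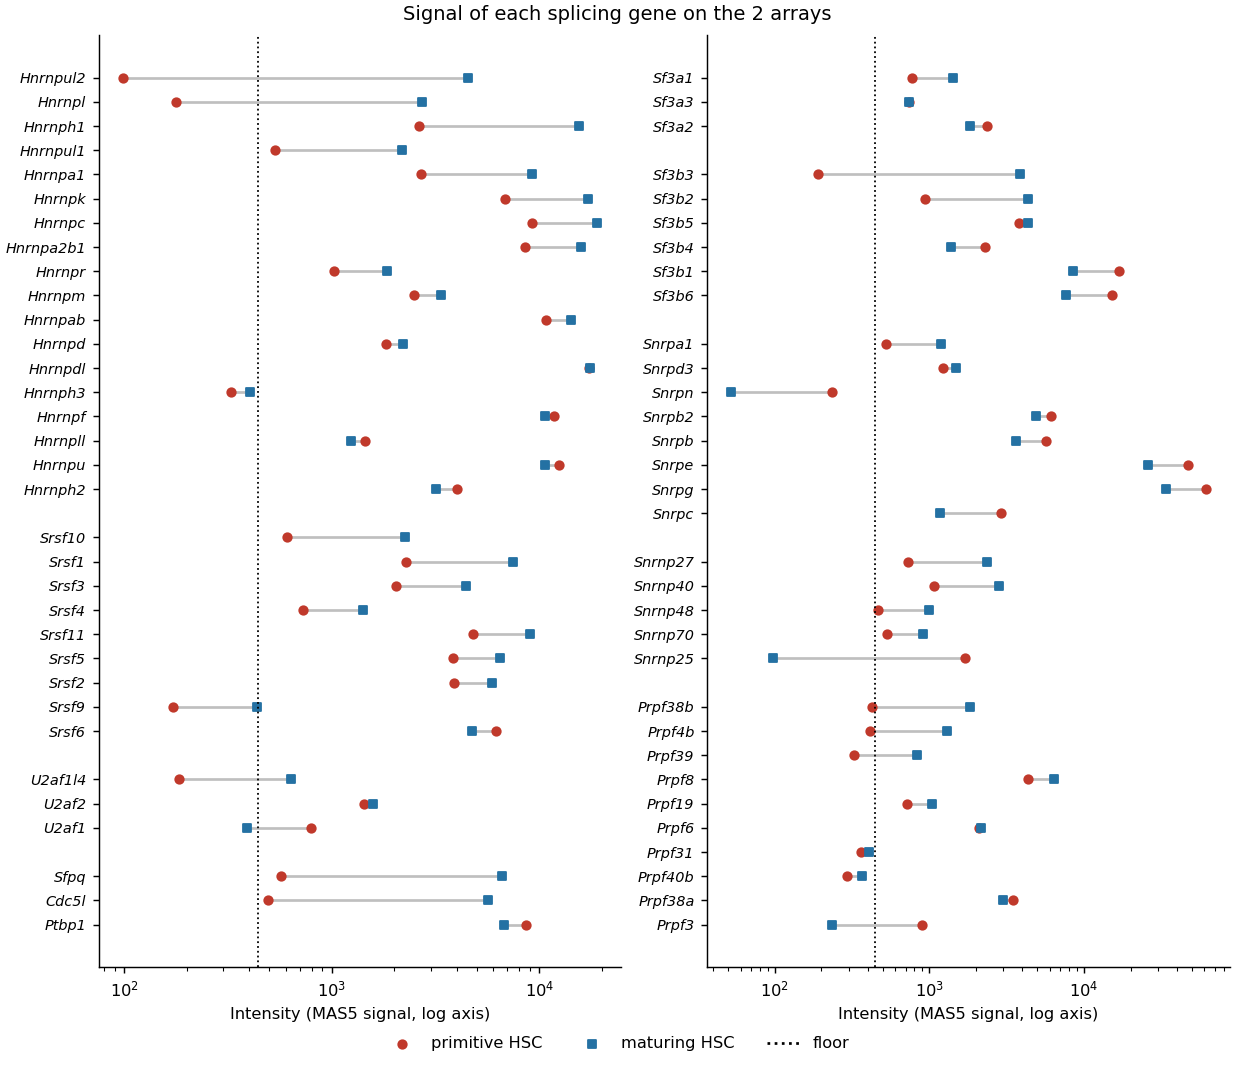
Signal of each of the 65 splicing genes on the array of primitive HSC (circles) and of maturing HSC (squares), as MAS5 intensity on a log axis, with genes grouped by family and the floor of 441.0 as a dotted line. Hnrnpul2, Sf3b3, Hnrnpl, Sfpq and Cdc5l have the longest bars toward maturing HSC, those of Hnrnpul2, Sf3b3 and Hnrnpl reaching below the floor, and Snrpc, Snrpe and Snrpg have their circle to the right.

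The lowest ratios among the members belonged to 2 genes that the rule names singly. Sfpq encodes a DNA- and RNA-binding protein that works in paraspeckles and in splicing, and it read 570.5 in primitive and 6631 in maturing HSC. The difference was 11.6-fold (log2 ratio -3.54), which was rank 10 of 8852 measured genes counted from the lowest ratio. All 5 probe sets of Sfpq were lower in primitive HSC, with 514.0 against 2486 and 533.0 against 3415 on the others above the floor on both arrays, and their ratios ran from -3.54 to -1.78. The primitive signal was thus near or under the floor in every probe set. Cdc5l, a core subunit of the Prp19 complex, read 494.0 and 5645, an 11.4-fold difference (-3.51, rank 12). Its second probe set read 141.3 and 1689, a bound of -1.94, so both lay on the same side. Ptbp1, the polypyrimidine tract binding protein that represses many exons, read 8610 in primitive and 6722 in maturing HSC, a ratio of 0.36 with its second probe set at -0.24. That difference was smaller than the spread between probe sets. Prpf19, which encodes the ubiquitin ligase that gives the Prp19 complex its name, read 719.2 and 1038 (-0.53).

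The promoters of the members at the 2 ends of the range are shown as examples. Picked as extremes, Snrpc and Sf3b6 do not stand for the other measured members in the motif counts below. The promoters shown belong to the 2 lowest and the 2 highest ratios among members above the floor on both arrays whose probe sets lay on one side of 0. Sfpq and Cdc5l come before Snrpc and Sf3b6. Each line gives the 250 bases before the RefSeq transcription start in build GRCm38.p6, read 5′ to 3′ in the direction of the gene, with matches to any of the motifs named below in capitals.
Sfpq, chr4:127021051-127021300, plus strand: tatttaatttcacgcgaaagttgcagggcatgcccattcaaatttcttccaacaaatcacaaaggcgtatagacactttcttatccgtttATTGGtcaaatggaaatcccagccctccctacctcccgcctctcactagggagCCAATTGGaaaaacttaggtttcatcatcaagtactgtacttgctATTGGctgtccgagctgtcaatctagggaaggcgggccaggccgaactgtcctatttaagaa
Cdc5l, chr17:45433708-45433957, minus strand: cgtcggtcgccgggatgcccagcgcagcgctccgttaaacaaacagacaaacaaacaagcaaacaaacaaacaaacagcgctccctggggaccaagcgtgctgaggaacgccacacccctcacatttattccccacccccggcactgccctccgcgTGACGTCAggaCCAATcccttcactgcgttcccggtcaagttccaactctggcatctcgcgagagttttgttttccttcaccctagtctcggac
Snrpc, chr17:27839837-27840086, plus strand: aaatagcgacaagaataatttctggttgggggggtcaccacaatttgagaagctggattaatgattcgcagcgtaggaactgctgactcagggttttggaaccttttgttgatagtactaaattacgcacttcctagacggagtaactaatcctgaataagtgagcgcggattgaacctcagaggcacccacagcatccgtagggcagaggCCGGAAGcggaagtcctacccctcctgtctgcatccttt
Sf3b6, chr12:4817358-4817607, plus strand: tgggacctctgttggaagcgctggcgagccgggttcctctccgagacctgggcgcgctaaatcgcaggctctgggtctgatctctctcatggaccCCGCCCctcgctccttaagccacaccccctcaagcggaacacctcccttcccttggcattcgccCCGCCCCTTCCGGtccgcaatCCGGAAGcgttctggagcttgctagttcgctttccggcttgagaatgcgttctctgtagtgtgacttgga
Sfpq held 4 matches to the CCAAT box, of which 2 overlap as mirror images, and Cdc5l held 1 CCAAT box and 1 CRE. Snrpc held 1 ETS motif, and Sf3b6 held 2 ETS motifs and 2 GC boxes.

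A RefSeq promoter was found for 58 of the 65 members, and 10 motifs were searched on both strands of the 250 bases. The CCAAT box (CCAAT) was present in 50% of member promoters and in 34.5% of the promoters of 27025 genes. Among the 18 members with a promoter and a 2-fold or larger difference toward maturing HSC, 13 (72.2%) held it, against 13 of the 35 other measured members (37.1%). The NRF1 motif went the other way, with 0 of the 18 and 8 of the 35 (22.9%), where all genes had 3.86%. The ETS motif (CCGGAAG) was in 29.3% of member promoters against 7.05% of all genes, in 4 of the 18 (22.2%) and 13 of the 35 (37.1%). The GC box (GGGCGG) was in 63.8% of members and 32.9% of all genes, with 61.1% among the 18 and 65.7% among the 35. Of the remaining motifs, the TATA box (TATAAA) was in 8.62% of members and 13.0% of all genes. YY1 (ATGGCGG), CRE (TGACGTCA), the E-box (CACGTG), E2F (TTTGGCGC) and ZNF143 (ACTACAA) were each in 1 to 4 of the 58. The E-box and E2F letters were in 0 of the 18, and in 3 and 1 of the 35. The median GC content of the 250 bases was 58.4% in members and 52.0% over all genes. These matches describe letters in a window and are not binding sites, and the 18 were chosen by their ratios, so the shares are a description.

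The Hnrnp genes encode abundant RNA-binding proteins that coat nascent transcripts and act on splicing, export and stability. Of 18, 17 were measured, and 13 (76.5%) had the higher signal in maturing HSC, against 47.3% of all genes. The difference was 2-fold or more in 7 (41.2% against 17.6%) and 4-fold or more in 4 (23.5% against 4.69%). The other 4 of the 17 were higher in primitive HSC, none by 2-fold. The family median was -0.85, with -0.84 after quantile normalization and -0.86 after lowess. The other scalings moved ratios little or toward maturing HSC, so they were no test of its sign. Hnrnpul2 read 98.3 and 4538, a bound of 10.3-fold toward maturing HSC, but its second probe set, at 317.5 and 486.9, gave a bound of only -0.14. Hnrnpl, which regulates the alternative exons of Cd45 in lymphocytes, read 177.8 and 2720, a bound of at least 6.17-fold from its single probe set. Hnrnph1, which binds runs of G, read 2627 and 15516 (5.91-fold), with a second probe set at -0.85. Its close relatives did not share that difference, since Hnrnph2 read 4011 and 3176 (0.34) and Hnrnpf read 11743 and 10638 (0.14). The 4 probe sets of Hnrnpf ran from -0.66 to 0.23.

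Further Hnrnp genes lay between 2-fold and 4-fold. Hnrnpul1 was just past the 4-fold threshold, with 535.3 and 2173 (4.06-fold), and came under it after lowess (-1.93), after quantile normalization (-1.90) and with the floor at percentile 75 (-1.08). Hnrnpa1, a splicing repressor, read 2678 and 9188 (-1.78), and its second measured probe set read 447.5 and 4571 (-3.35). Hnrnpk, which binds C-rich RNA, was lower in primitive HSC in all 4 probe sets, with 6839 and 17107 in the brightest and ratios from -2.02 to -0.25. Hnrnpc, which binds runs of U, read 9216 and 19056 (-1.05), while its dimmer probe set read 941.9 and 597.7 (0.66). Hnrnpa2b1 (-0.90), Hnrnpr (-0.85), Hnrnpm (-0.44), Hnrnpab (-0.40) and Hnrnpd (-0.27) were within 2-fold. Of these, 3 had probe sets on both sides of 0, from -0.90 to 0.40 for Hnrnpa2b1, from -1.22 to 0.73 for Hnrnpr and from -1.28 to 0.89 for Hnrnpab.

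Some Hnrnp genes gave probe sets that differed widely. Hnrnpu, which encodes the scaffold attachment factor of the nucleus, read 12443 and 10629 (0.23) in its brightest probe set and 1942 and 12669 (-2.71) in the next, and the other 3 ran from -0.76 to -0.30. Hnrnpdl read 17402 and 17606 (-0.02) in its brightest, while its 6 probe sets reached down to -2.20. Hnrnpll, which is related to Hnrnpl, read 1448 and 1234 (0.23) and, in its other probe set, 90.8 and 1162, a bound of -1.40. For Hnrnpu and Hnrnpll the direction depends on which probe set is read, and for Hnrnpdl only the size does.

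The Srsf genes encode the SR proteins. Of 9, 8 were measured, each with both signals above the floor, and 7 (87.5%) were higher in maturing HSC, against 47.3% of all genes. The family median of -0.94 was -0.94 after quantile normalization and -0.97 after lowess. Srsf1, the founding SR protein, lay on one side of 0 throughout, with 2281 and 7430 (3.26-fold) in its brightest probe set and ratios or bounds from -1.79 to -0.97 in all 6. Srsf11 was lower in primitive HSC in both of its probe sets (-0.92 and -0.55), and the single probe sets of Srsf4 (-0.96) and Srsf5 (-0.74) lay on the same side.

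Other Srsf genes had probe sets on both sides of 0. Srsf10 had the lowest family ratio, 612.3 and 2263 (-1.89), and a second probe set at -1.74, but its other 2 stood at 0.33 and 0.73. Srsf3 read 2044 and 4416 (-1.11) and had 4 more probe sets at -1.55, -1.29, -1.16 and -0.93, yet 1 probe set read 3256 and 781.6 (2.06). Srsf2 read 3880 and 5893 (-0.60) in its brightest, 6725 and 1548 (2.12) in the next, 1309 and 856.1 (0.61) in another, and 335.6 and 1764 in the last, a bound of -2.0. Srsf2 and Srsf3 were the only members with probe sets at least 2-fold apart from 0 in both directions, as were 115 of the 2764 genes with several measured probe sets on the whole array. Srsf6 read 6197 and 4746 (0.38) in its brightest probe set and 496.2 and 3270 (-2.72) in its dimmest. SR protein genes are known to make several transcript forms with different exons and 3′ ends, and the positions of the probes were not used here.

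**Figure D2:**
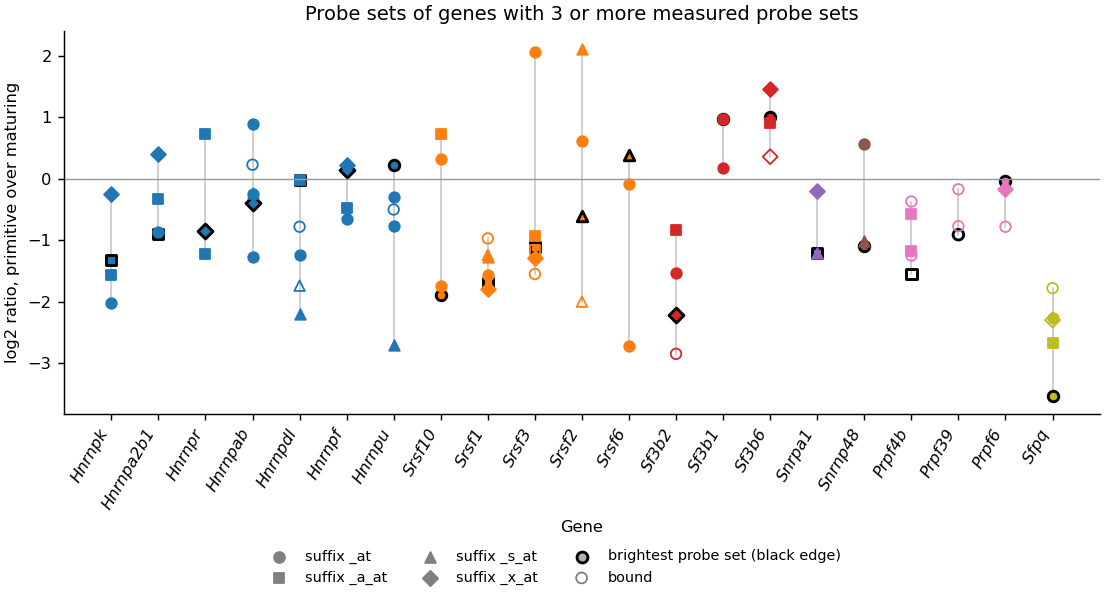
Ratio (log2, primitive over maturing) of each measured probe set for the 21 splicing genes with 3 or more, with the marker shape giving the probe set suffix, open markers for bounds and a black edge for the brightest probe set. Sfpq, Srsf1, Sf3b2 and Hnrnpk lie wholly below 0 and Sf3b1 and Sf3b6 wholly above it, while Srsf2 spans -2.0 to 2.12 and Srsf3 -1.55 to 2.06.

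Over all members with more than 1 measured probe set, the probe sets of 23 of 38 genes (60.5%) lay on one side of 0, against 55.6% of 2764 genes on the array. The probe sets differed by at least 4-fold in 10 of the 38 (26.3%), against 15.9%. Probe sets with the suffixes _at, _a_at, _s_at and _x_at, where all but the first may bind several transcripts of a gene or of related genes, had member medians of -0.55, -0.83, -0.81 and -0.32, while over all genes the 4 medians lay between -0.09 and 0.03.

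The U2 snRNP subcomplexes split by subunit. SF3b grips the branch point region, and its genes lay far to both sides of 0. Sf3b3 read 190.5 and 3852, at least 8.73-fold higher in maturing HSC, on a single probe set. Sf3b2 read 934.6 and 4313 (4.61-fold), and its 4 probe sets ran from -2.85 to -0.83. In contrast, Sf3b1, the largest subunit, read 16794 and 8511 (0.98), with further probe sets at 0.17 and 0.97. Sf3b6, the small subunit that contacts the branch point, read 15292 and 7661 (1.0), and its other 3 probe sets lay between 0.36 and 1.47. Sf3b4 stood at 0.73 and -0.10 in its 2 probe sets, and Sf3b5 at -0.20. The SF3b median of 0.27 therefore describes none of its 6 genes well. It turned to -0.71 with the hybridisation controls as the scale, which left Sf3b1 at 0.01 and Sf3b6 at 0.02. On that scale the median of all measured genes was -0.74. All 3 Sf3a genes were within 2-fold, with Sf3a1 at -0.88, Sf3a3 at 732 on both arrays with a second probe set at a bound of -0.87, and Sf3a2 at 0.37 and 0.86 in its 2 probe sets. The U2-specific Snrpa1 read 520.1 and 1194 (-1.20), with its other probe sets at -1.20 and -0.19. Snrpb2, whose protein pairs with that of Snrpa1 on U2 RNA, read 6078 and 4889 (0.31), with a second probe set at 1.08.

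The Sm proteins form the ring that closes around U1, U2, U4 and U5 RNA. Snrpe read 47310 and 26144 (0.86), and Snrpg read 61455 and 33820 (0.86), with a second probe set at 1.14. Snrpb, which also gives rise to the B and B′ proteins, read 5673 and 3618 (0.65). Snrpd3 read 1215 and 1490 (-0.29), and its second measured probe set read 25.8 and 1694, a bound of -1.94. The 7 measured Snrp genes had a median of 0.65, which was 0.07 after quantile normalization, 0.06 after lowess and -0.33 after scaling to the hybridisation controls. In the same settings the medians of all measured genes were 0.13, 0.05 and -0.74. Snrpe and Snrpg moved with the Snrp median, to 0.06 and -0.01 after lowess. Snrpc, the U1-specific protein that stabilises pairing with the 5′ splice site, read 2903 and 1176 (2.47-fold, 1.30). It was higher in primitive HSC under every scaling that was run, with 1.43 after lowess and 0.33 after scaling to the hybridisation controls. The other U1-specific gene on the array with 1 symbol, Snrnp70, read 530.9 and 902.9 (-0.77), so the 2 lay on opposite sides of 0.

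Proteins of the tri-snRNP and of the minor spliceosome, which removes the rare U12-type introns, made up most of the Snrnp and Prpf families. Snrnp27 read 725.8 and 2368 (-1.71), and its second probe set was at least -2.46 from 0 as a bound toward maturing HSC. Snrnp40, a U5 protein, read 1076 and 2835 (-1.40), but its second probe set read 1099 and 621.2 (0.82). Prpf8, the scaffold around the catalytic centre, read 4353 and 6393 (-0.55), Prpf6 2099 and 2152 (-0.04), and Prpf38a 3473 and 2972 (0.22). Prpf4b, a kinase of the tri-snRNP, was at the floor in primitive HSC in its brightest probe set, with 415.2 and 1296, a bound of 2.94-fold toward maturing HSC, and all 5 measured probe sets lay below 0. Prpf3 went the other way, with 897.4 and 232.8, at least 2.03-fold higher in primitive HSC on a single probe set. Over the 7 measured tri-snRNP genes, 5 (71.4%) were higher in maturing HSC, against 47.3% of all genes, and the median was -0.55.

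The 2 genes of the minor spliceosome also opposed each other. Snrnp25 read 1696 and 96.9, at least 3.85-fold higher in primitive HSC, which was the largest member value in that direction and just short of the 4-fold threshold. With the floor at percentile 25 its bound was 3.59 and with the floor at percentile 75 it was 0.72, so its size rests on how low the maturing signal is taken to be. Snrnp48 read 464.7 and 991.9 (-1.09) and 477.2 and 964.9 (-1.02), with a further probe set at 0.57. The 5 Snrnp genes had a median of -1.09, and with probe sets ending in _at alone 3 were measured, with a median of 0.82.

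The remaining Prpf genes gave mostly low signals. Prpf38b read 424.3 and 1817, at least 4.12-fold higher in maturing HSC, with a primitive signal just under the floor, and it was under 4-fold after quantile normalization (-1.95) and under 2-fold with the floor at percentile 75 (-0.82). Prpf39, a U1-associated protein, was at the floor in primitive HSC in all 3 probe sets, with 326.9 and 827.2 in the brightest, a bound of -0.91. Of the 8 measured Prpf genes, 6 were higher in maturing HSC, and the median of -0.54 kept its sign under every scaling that was run. The U2AF genes were all within 2-fold. U2af2, the large subunit that binds the polypyrimidine tract, read 1436 and 1587 (-0.14). U2af1, which reads the AG of the 3′ splice site, read 795.6 and 390.2, a bound of 0.85, and its relative U2af1l4 gave a bound of -0.53.

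**Figure D3:**
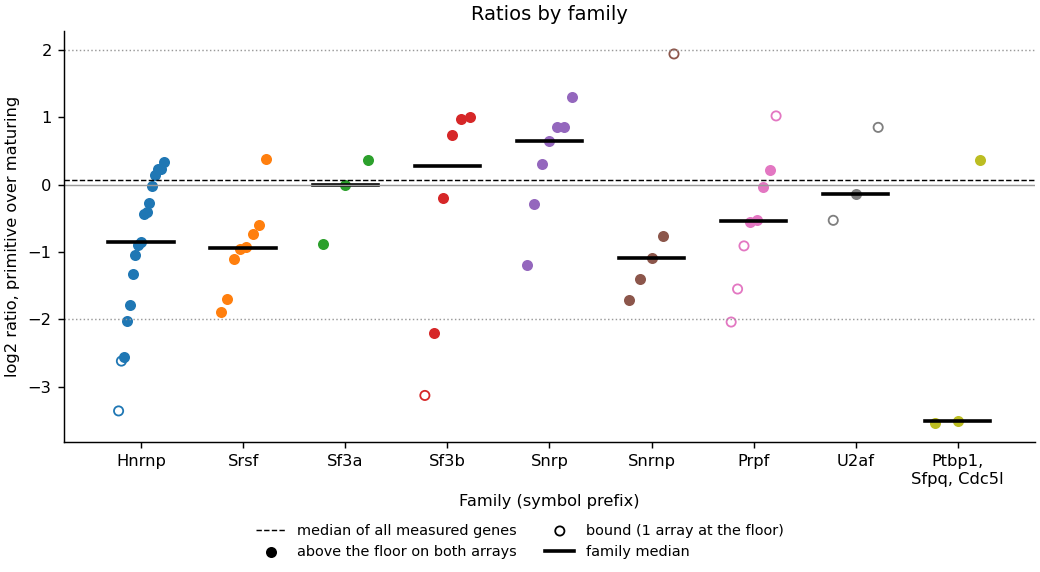
Ratio (log2, primitive over maturing) of each measured splicing gene by family, with open circles for bounds, a bar for the family median, dotted lines at 4-fold and a dashed line at the median of all measured genes, 0.07. Hnrnp, Srsf, Snrnp and Prpf have medians between -1.09 and -0.54, and Snrp (0.65) and Sf3b (0.27) lie above 0. These 2 turn to -0.33 and -0.71 when the arrays are scaled to the hybridisation controls, where all measured genes have a median of -0.74.

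The families differed in how far they lay from the array as a whole, and no test of these differences was possible. The 18 hybridisation controls, which are spiked in before hybridisation, all had the higher signal on the primitive array, with a median log2 ratio of 0.97. Scaling to them moved the median of all measured genes from 0.07 to -0.74 and that of the members from -0.54 to -1.39. It divides the primitive array by a constant. The distance of the members from the array median could thus change only through the floor and the choice of brightest probe set. The Snrp median was the highest of the 8 prefix families in that setting. The Sf3b median was above it after quantile normalization (0.21 against 0.07, with Sf3a at 0.12), after lowess (0.16 against 0.06) and where both signals had to be above the floor (0.73 against 0.65). Across the 60 measured members, the ratio had a Spearman correlation of -0.30 with the genomic span of the gene and of 0.14 with its mean signal. Across 8839 genes of the array the correlation with span was -0.14. These are correlations across genes of 1 pair of libraries, and the part of transcript length in the family differences was not tested.

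**Figure D4:**
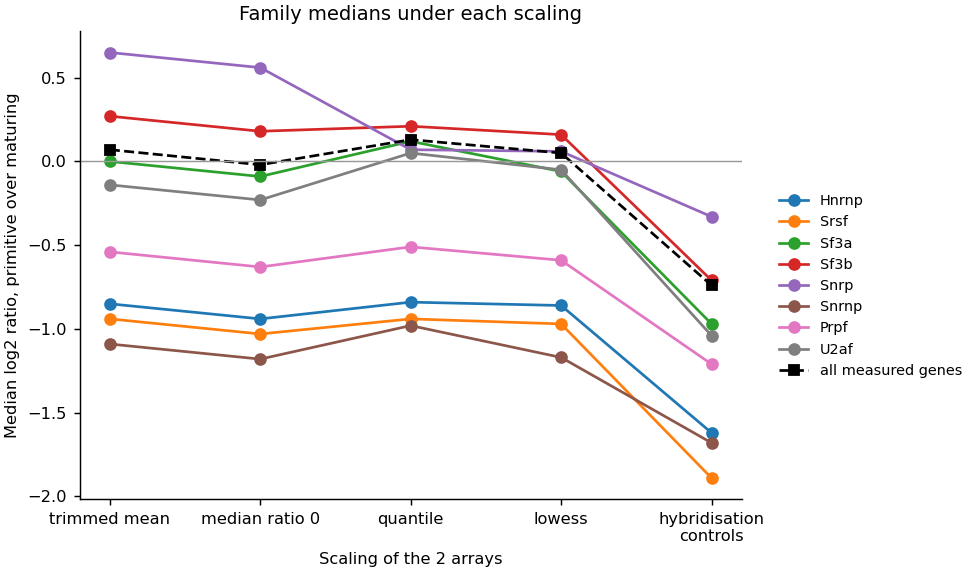
Median log2 ratio (primitive over maturing) of the 8 prefix families under 5 scalings of the arrays, with all measured genes as a dashed line and thin lines joining the points of a family for reading only. Hnrnp, Srsf, Snrnp and Prpf stay below 0 and below all genes in each, while Snrp drops from 0.65 to 0.06 after lowess, U2af and Sf3a change sign around 0, and every family lies below 0 after scaling to the hybridisation controls.

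Other genes of the pathway were taken from 7 lists that share no gene with the members. Of 122 genes listed, 102 were on the array and 97 were measured, with a median of -0.22. In maturing HSC 54 (55.7%) were higher, against 47.3% of all genes, and in primitive HSC 43 were, against 52.7%. At 4-fold, 8 (8.25%) were higher in maturing HSC against 4.69% of all genes. In primitive HSC 4 of the 97 were, near the 3.45% of all genes. LSm proteins, most of which bind U6 RNA or act in mRNA decay, were the list furthest toward primitive HSC. There 7 of 7 measured genes were higher, against 52.7% of all genes, at a median of 0.92. Lsm3 read 18849 and 5772 (1.71), and Lsm1, which belongs to the ring that acts in decay, read 2361 and 921.7 (1.36). After scaling to the hybridisation controls 4 LSm genes remained higher in primitive HSC. The LSm median was then 0.16, where that of all measured genes was -0.74. Spliceosomal helicases and the U5 GTPase had the list median furthest toward maturing HSC, -1.22, with 6 of 8 higher there, against 47.3% of all genes. With probe sets ending in _at alone their median was -0.53. In that setting the lists for snRNP assembly (-1.8), the exon junction complex and export (-0.9) and the Prp19 complex (-0.62) lay further toward maturing HSC. Eftud2, the U5 GTPase that partners Prpf8, read 646.6 and 2586 (-2.0), with 3 probe sets from -2.82 to -2.0. Dhx15, the helicase that takes the spliceosome apart, read 2108 and 7933 (-1.91), while Ddx46 read 1091 and 156.5, a bound of 1.31, and -0.20 in its second probe set.

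The Prp19 complex and step factors, a list that reaches beyond the partners of Cdc5l, did not form one group. Of the 18 measured, 11 (61.1%) were higher in maturing HSC, against 47.3% of all genes. Their median of -0.26 turned to 0.09 where both signals had to be above the floor. Plrg1, which binds Cdc5l directly, read 398.9 and 1761, a bound of 3.99-fold toward maturing HSC, and Crnkl1 gave a bound of 3.25-fold the same way. Xab2 read 3039 and 689.7 (2.14) and Sart3 read 1490 and 499.9 (1.58), both higher in primitive HSC. Among partners of Sfpq, the paraspeckle gene Nono read 6297 and 14872 (-1.24), with probe sets up to 0.66, and Pspc1 read 1782 and 772.0 (1.21). These 2 were named after their values had been seen.

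The exon junction complex marks spliced mRNA and recruits export factors. In that list 7 of 13 genes were higher in maturing HSC, 53.8% against 47.3% of all genes. At 2-fold, 5 (38.5% against 17.6% of all genes) were higher there and 4 (30.8% against 15.6%) in primitive HSC. The median of -0.82 was -0.13 with the median of probe sets and turned to 0.49 where both signals had to be above the floor. Rnps1 read 728.2 and 4764 (6.54-fold), with all 4 probe sets from -2.71 to -1.39, and Casc3 gave a bound of 4.6-fold toward maturing HSC. Thoc3 (1.57) and Alyref (1.52), which act in export, were higher in primitive HSC. For snRNP assembly, 6 of 9 (66.7%) were higher in maturing HSC, against 47.3% of all genes, with a list median of -0.67. Tgs1, which trimethylates the snRNA cap, was at least 6.18-fold higher there, and Clns1a, which carries Sm proteins before assembly, read 2011 and 9085 (-2.18). Wdr77, of the methylosome, read 5016 and 768.0 (2.71) and had a second probe set at -0.17, and Phax, an snRNA export adaptor, stood at 1.16.

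SR-related proteins and SR kinases were divided. Of 14, 8 were higher in primitive HSC, where 52.7% of all genes were. The median of 0.50 turned to -0.47 after scaling to the hybridisation controls, where that of all measured genes was -0.74. The SR protein kinase gene Srpk2 read 3167 and 566.0 (2.48), with a second probe set at 2.27. Tra2a gave a bound of 3.56-fold toward primitive HSC. Clk4, another kinase of SR proteins, read 1065 and 4184 (-1.97) and had a second probe set at 1.19, and Scaf11 stood at -1.88. Among other regulators of splice site choice, 18 of 28 (64.3%) were higher in maturing HSC, against 47.3% of all genes, with a list median of -0.35. Qk, the quaking gene, read 728.1 and 6752 (-3.21) and Khdrbs1, which encodes Sam68, read 784.1 and 6730 (-3.10), and their further probe sets reached -0.09 and -0.41. Tardbp read 5124 and 320.0 in its brightest probe set, a bound of 11.6-fold toward primitive HSC, while its 4 probe sets ran down to -1.06. Tia1 read 1468 and 626.7 (1.23), with probe sets down to -1.42.

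**Figure D5:**
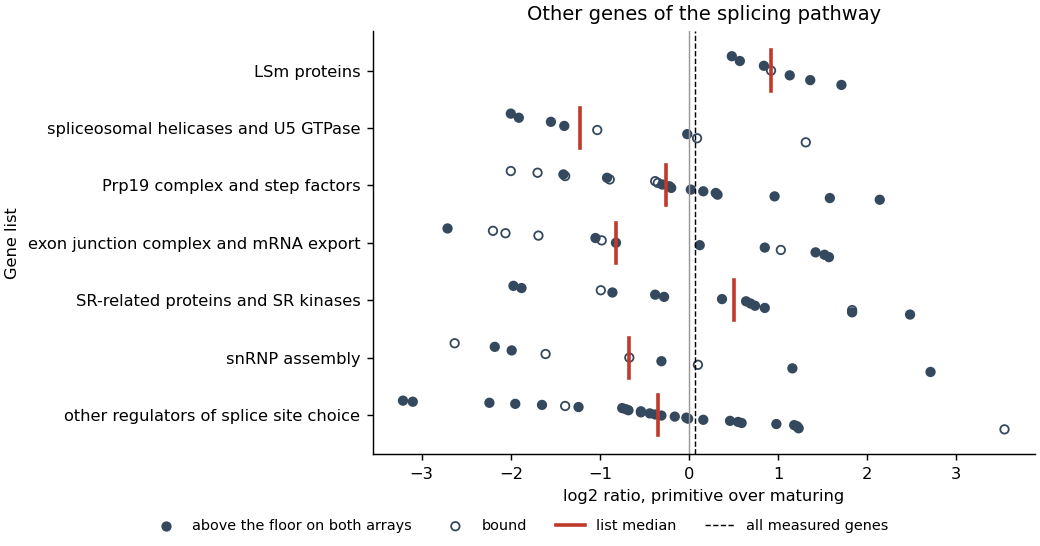
Ratio (log2, primitive over maturing) of the measured genes of 7 other splicing lists, with open circles for bounds, a red bar for each list median and a dashed line for all measured genes. LSm proteins have a median of 0.92 and lie wholly above 0, and spliceosomal helicases have the lowest median, -1.22. The SR-related median of 0.50 turns to -0.47 when the arrays are scaled to the hybridisation controls, where all measured genes have a median of -0.74.

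Proliferation markers moved with the comparison. Of 10 proliferation genes, 8 of the 9 on the array were measured and 8 of 8 were higher in maturing HSC, with a median of -1.74, a summed signal of 40287 in primitive and 85811 in maturing HSC, and Tyms at the floor on both arrays. Stem cell surface genes were present in both populations, with 6 of 6 above the floor in primitive and 5 of 6 in maturing HSC. The 2 past 2-fold, Procr (2.61) and Abcg2 (a bound of 1.94), were both higher in primitive HSC. The other 4 of 6 were within 2-fold, with Thy1 (0.56) and Slamf1 (0.24) higher in primitive HSC. Kit (-0.41) and Cd34 (-0.91) were higher in maturing HSC. The sums given here, before and after, add signals of different probe sets, so the brightest genes carry them. Neutrophil and monocyte markers summed to 132848 and 74116, with 9 and 11 of 11 above the floor. S100a8 (46743 and 19527) was among the genes that carry this sum, while 4 of the 11 were higher in maturing HSC, namely Mpo and Csf3r (both bounds of -2.55), Ltf (-1.63) and Ctsg (-1.10). T and natural killer cell markers summed to 55295 and 10586, with 4 and 2 of 7 above the floor and Cd2, Cd3e and Cd3g at the floor on both. That sum rests mainly on Ccl5 (37795 and 1511) and Cd3d (8673 and 44.2), and Nkg7 read 6299 and 7933. B cell markers summed to 2338 and 6851, with 3 and 6 of 7 above the floor. Ighm (56.6 and 2880) gives a large part of that sum, and its 8 probe sets ran from -2.71 to 1.38. Macrophage and dendritic cell markers summed to 6262 and 3507, with 5 and 3 of 6. Erythroid markers summed to 34621 and 33116, with Alas2, Car1 and Hba-a1 at the floor on both. Car2 (31255 and 31463) carries that sum, while Klf1 (1.89) was higher in primitive and Epor (-0.29) in maturing HSC. Megakaryocyte markers summed to 6406 and 6379, although Gp9 gave a bound of 2.04 and Pf4 stood at -0.82. The part of growth state and of other cell types in the splicing ratios was not tested.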

How the data were processed

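Expression was measured on 1 array of primitive and 1 array of maturing HSC. The authors made the deposited linear signal intensities, 1 per probe set, with MAS5, per the submitters' processing notes. The sources used here do not give its version. Both arrays were rescaled to a common 2% trimmed mean, which they already shared (1000.6 and 1000.4). Probe sets were named from GEO's platform annotation. Of 22690 probe sets, 64 were controls, 20380 had 1 symbol, 691 had several and 1555 had none. Each gene was represented by its brightest probe set over both arrays. Genes at least 4-fold apart were counted, and no test was possible. Genes given in full were the 3 largest ratios or bounds per family and direction past 2-fold, with Ptbp1, Sfpq, Cdc5l and genes with probe sets past 2-fold both ways, and up to 2 per pathway list and direction. Members and lists were chosen with earlier results of these data known. Promoters came from RefSeq. The steps were tested on simulated data. Alternatives covered scaling, floor, threshold and probe sets. Computation used pandas 2.3.3 and numpy 2.4.6 in Python 3.11.15, with lowess from statsmodels 0.14.6, correlations from scipy 1.17.1 and plots from matplotlib 3.10.9. The number of arrays limits the precision.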

Additional observations from a re-analysis of the deposited data

How the results depend on the processing

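The count of 9 members at least 4-fold higher in maturing HSC was 20 at 2-fold and 4 at 8-fold, where 60 of all 8852 genes were. It was 18 after scaling to the hybridisation controls and 5 with the floor at percentile 75 (9.43% against 2.53% of all genes). Where both signals had to be above the floor, which leaves fewer genes to count, it was 5 (10.0% against 3.49%). With the median of probe sets it was 8 (13.3% against 3.26%). There Hnrnph1, Hnrnpul2 and Sf3b2 came under 4-fold, while Hnrnpa1 (-2.57) and Snrnp27 (-2.08) passed it. All 9 were still past 2-fold in every setting in which they were measured, except Prpf38b with the floor at percentile 75. The count of 0 members higher in primitive HSC was 3 at 2-fold and 1 each after quantile normalization, with the floor at percentile 25, and without probe sets ending in _s_at, _x_at or _a_at. The member median of -0.54 was -1.39 after scaling to the hybridisation controls, where that of all measured genes was -0.74. In the other settings the member median stayed below 0. Family medians that changed sign were U2af after quantile normalization (0.05), Sf3b (-0.71) and Snrp (-0.33) after scaling to the hybridisation controls, Snrnp with _at probe sets alone (0.82), and Sf3b over genes whose probe sets lay on one side of 0 (-0.20), a setting chosen after seeing the data, as was leaving out Ptbp1, Sfpq and Cdc5l. The Sf3a median, 0.00 as reported, ran from -0.97 to 0.12. Among genes at least 2-fold apart, Srsf3 (2.06), Hnrnpc (0.66) and Snrnp40 (0.82) changed sign with _at probe sets alone, because another probe set then stands for the gene. The other causes were not tested. Of 616 values of single genes over all settings, 544 moved by less than 1 SD between probe sets, while sign changes of genes within 2-fold were not counted. Many of the 544 could not move. The deposited values already shared a trimmed mean, and setting the median ratio to 0 shifted every gene alike. Requiring both signals above the floor, or probe sets on one side of 0, only left genes out. The count of 544 is therefore no measure of stability. A signal near the floor limits Sfpq, Cdc5l and every bound.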
